A study of Mus musculus with 18 samples.

Results

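The mir-23a and mir-23b clusters are paralogous groups of miRNA hairpins, each of which holds a mir-23, a mir-27 and a mir-24 hairpin. Their members were taken by name from the deposited table of precursors, as mmu-mir-23a, mmu-mir-27a, mmu-mir-23b, mmu-mir-27b and mmu-mir-24 (the species prefix is left out below), which is 5 of 1006 precursors, and all 5 passed the filter on low counts that left 273 for testing. mir-23a and mir-27a belong to the a cluster alone and mir-23b and mir-27b to the b cluster alone. The row mir-24 sums the copies in both clusters and can be given to neither. The 18 small RNA libraries came from the mouse pro-B line Baf3, cultured with interleukin-3 in excess. All cells carried fluorescent reporters of mutated miR-15a and miR-16 activity and a vector for Cas9 and 1 guide RNA, and were selected with puromycin. The guides were directed at Rag1 (the control group, labelled Rag1_KO), at both Safb1 and Safb2 (SAFB) or at Erh (ERH). Each genotype had 2 guides, so 2 polyclonal populations, and each population gave 3 libraries, 1 in each of 3 labelled batches. Populations were sorted for a derepressed dsRed reporter of miR-15a and regrown; the labels do not say how this step was done for controls. Per the labels this sort was meant to collect cells no longer able to carry out cluster assistance, and the number of edited cells behind a population is not given there.

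miRNA hairpins of a cluster are cut one by one from a shared primary transcript by the Microprocessor, the complex of Drosha and DGCR8, and are then trimmed by Dicer to mature miRNAs that silence mRNAs through their seed. SAFB proteins and ERH bind the Microprocessor, and their loss lowers the output of some poorly cut hairpins that depend on a neighbour on the same transcript. The mir-23a cluster is known in mouse blood formation for favouring myeloid over B lymphoid cells, and miRNAs of the mir-27 family are known repressors of fat cell differentiation. The comparison of the clusters asks whether hairpins with the same family and order in each behaved alike when SAFB or ERH was disrupted.

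The mature 3′ arms are shown because the families differ by seed, while the mir-27 paralogs differ by 1 base and the mir-24 copies by none. Capitals mark the seed, bases 2 to 8, and the sequences are those of RefSeq for build GRCm38.p6.
mmu-miR-23a-3p: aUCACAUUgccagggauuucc
mmu-miR-27a-3p: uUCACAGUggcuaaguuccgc
mmu-miR-27b-3p: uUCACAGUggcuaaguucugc
mmu-miR-24-3p: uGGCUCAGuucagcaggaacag
The other paralog of the first family is mmu-miR-23b-3p. miR-27a-3p and miR-27b-3p share their seed and differ at 1 of 21 bases, C19U, with positions counted from the 5′ end and the base of miR-27a first. The first 18 bases are the same, so a read that ends before position 19 fits both rows. How the authors assigned such reads is not given in the sources used here, and the split between mir-27a and mir-27b is uncertain to that extent. How reads were split between mir-23a and mir-23b is not given there either, and the 3′ arms of that pair were not compared here. The seeds of miR-23a-3p and miR-27a-3p match at 6 of 7 positions and differ by U7G. miR-24-3p is the same 22 bases from both clusters, which is why its copies cannot be separated.

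The 5′ arms separate the mir-27 and the mir-24 paralogs better than the 3′ arms and are shown for that reason, with bases 2 to 8 in capitals.
mmu-miR-23a-5p: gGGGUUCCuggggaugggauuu
mmu-miR-23b-5p: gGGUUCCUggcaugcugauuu
mmu-miR-27a-5p: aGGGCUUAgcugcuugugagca
mmu-miR-27b-5p: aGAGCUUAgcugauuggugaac
mmu-miR-24-2-5p: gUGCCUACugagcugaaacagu
mmu-miR-24-1-5p: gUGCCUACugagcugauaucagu
miR-27a-5p and miR-27b-5p differ at 8 of 22 bases. The longest run shared by the mir-23 5′ arms is 10 bases, and the mir-24 5′ arms share their first 16. Both arms of a hairpin share 1 row of counts, so arm usage was not analysed here.

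The a cluster lies on the plus strand of chromosome 8 in build GRCm38 (GENCODE M21, which may not be the build the authors used). Mir23a spans chr8:84208518-84208592, Mir27a chr8:84208672-84208758 and Mir24-2 chr8:84208815-84208921. Gaps of 79 and 56 bp separate them, and the cluster covers 404 bp. Of these hairpins, Mir24-2 alone touches another gene on its strand, sharing 2 bp with the long noncoding RNA gene Gm26532. The b cluster lies on the plus strand of chromosome 13 and covers 792 bp, with gaps of 154 and 423 bp. Mir23b, at chr13:63300484-63300557, lies in an intron of the protein-coding gene 2010111I01Rik. Mir27b, at chr13:63300712-63300784, and Mir24-1, at chr13:63301208-63301275, overlap exons of some transcripts of that gene, and all 3 lie antisense in an intron of Fancc.

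**Figure D1:**
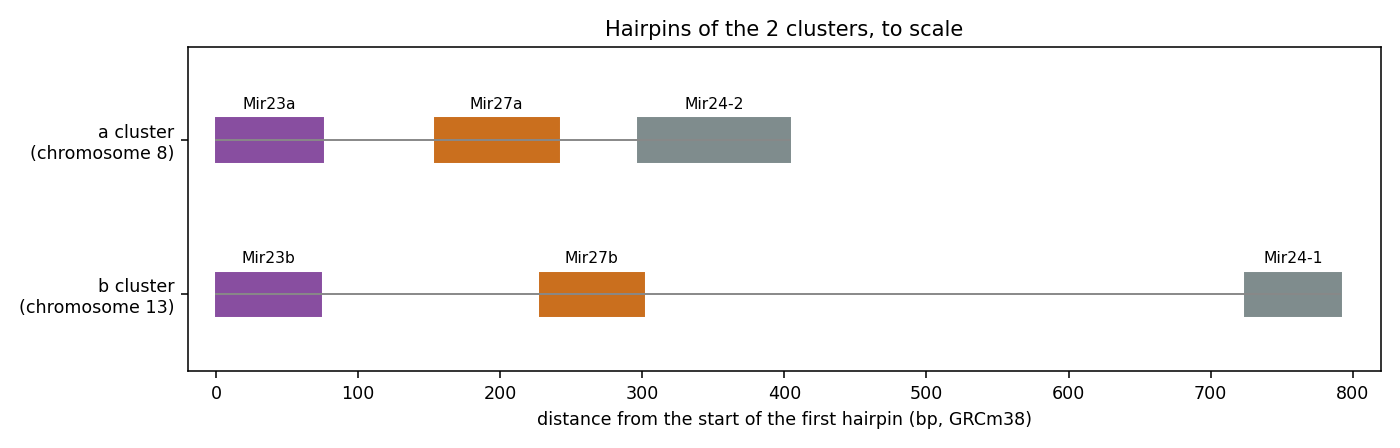
Hairpins of the a cluster and the b cluster drawn to scale; the horizontal axis is the distance in bp from the start of the first hairpin, and colours mark the mir-23, mir-27 and mir-24 families. The order is the same in both clusters, and the last gap is 56 bp in the a cluster and 423 bp in the b cluster.

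The hairpins of the mir-27 family are shown whole, since the paralogs have nearly the same mature product within different precursors; capitals mark both mature arms.
Mir27a: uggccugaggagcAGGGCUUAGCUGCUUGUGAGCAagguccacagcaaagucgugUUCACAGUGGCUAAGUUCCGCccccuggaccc
Mir27b: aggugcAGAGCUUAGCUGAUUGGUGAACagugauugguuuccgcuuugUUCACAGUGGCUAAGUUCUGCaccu
The hairpins of the b cluster have a lower GC content than those of the a cluster. It was 56.0% in Mir23a, 59.8% in Mir27a and 61.7% in Mir24-2, against 48.6% in Mir23b, 47.9% in Mir27b and 51.5% in Mir24-1. The folding energy predicted by RNAfold, divided by hairpin length, was -0.541 kcal/mol per base in Mir27b and -0.389 in Mir23b. In the a cluster it was -0.421 in Mir27a, -0.435 in Mir23a and -0.458 in Mir24-2, and in Mir24-1 it was -0.387. Within the b cluster the mir-27 hairpin thus had the lower predicted energy per base, while the mir-23 and mir-27 hairpins of the a cluster were close to each other. These are values of 6 sequences and no test was made of them.

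Libraries held 2699323 to 4470073 miRNA counts, and the members together took 0.789% to 1.35% of them. The lowest count of any member in any library was 1302, for mir-23b, and the highest 31383, for mir-27b. Reads were not known to be collapsed to molecules, and the depth speaks to counting error only. Of 7 blood miRNAs used as markers, the summed level was 22899 to 30380 CPM (read counts scaled to library size by trimmed mean of M-values, TMM) for control, 27690 to 34857 for SAFB and 21434 to 26708 for ERH. The lymphoid and myeloid markers mir-155, mir-181a and mir-223 were all present, while the lymphocyte marker mir-150 was low, at 19.3, 4.91 and 9.29 CPM in control, SAFB and ERH libraries. Single markers moved in different directions: mir-223 had 9611, 17414 and 9214 CPM, mir-181a 3114, 4662 and 4119 CPM, and mir-146a 1921, 1322 and 1602 CPM in the same order. Of 16 markers of other tissues, the summed level was 6195 to 6852, 5754 to 6625 and 5397 to 6598 CPM in the same order, most of it mir-126a and mir-128. mir-126a, counted here for endothelium, is also among the miRNAs with known roles in blood cell differentiation listed below. The erythroid marker mir-451a was counted here too, at a mean below 1 CPM in each genotype. This sum therefore does not measure cells other than blood alone. The muscle marker mir-206 was at 0 in every library, and mir-133a and mir-124 were at 0 in control libraries and at a mean below 1 CPM in the others. mir-9, a neuronal marker, was at 9.06 CPM in control libraries, at 65.9 CPM in SAFB and at 259.7 CPM in ERH. The part of these shifts in the results was not tested, and in bulk RNA fewer cells with a miRNA and less miRNA per cell cannot be told apart.

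On the TMM scale all 5 members were lower in SAFB than in control libraries, and all 5 were lower in ERH. The ERH calls depended on the scale: 2 of 5, mir-23b and mir-27b, were called under total counts and 0 of 5 under spike-ins. The b cluster fell further than the a cluster in both knockouts. mir-23b was the member that fell most in SAFB, where the fitted level fell by 61.7%, and mir-27b the one that fell most in ERH, where it fell by 39.1%. Under TMM the members of the a cluster fell by less than 0.4 on the log2 scale in either knockout. Under spike-ins the SAFB values were -0.57 for mir-23a and -0.61 for mir-27a, both called. The median of all tested precursors was then -0.23.

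In the b cluster, mir-23b had a lowest, median and highest level of 1006, 1053 and 1147 CPM in control libraries. In SAFB these values were 375.6, 393.8 and 447.6 CPM, and in ERH 681.6, 696.1 and 736.5 CPM. The 3 genotypes did not overlap: every ERH library lay below every control library and above every SAFB library. Against control the log2 fold change was -1.39 for the SAFB libraries (SE 0.064, adjusted p = 7.1e-15) and for the ERH libraries -0.60 (SE 0.063, adjusted p = 2.3e-08), from edgeR's quasi-likelihood test with Benjamini-Hochberg adjustment over the 273 precursors. Within batches 1, 2 and 3 it was -1.43, -1.43 and -1.31 in SAFB and -0.63, -0.58 and -0.57 in ERH. Each guide population of a knockout was also set against each control population. These 4 comparisons gave -1.49 to -1.29 for SAFB and -0.65 to -0.54 for ERH, so both guides of a target gave like values.

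mir-27b, the most abundant member, ranked 19th to 23rd among all precursors in control libraries. Its lowest, median and highest levels were 6825, 7521 and 8273 CPM for control, 3722, 4007 and 4418 CPM for SAFB, and 3912, 4541 and 5220 CPM for ERH. Neither knockout reached the lowest control library, while SAFB and ERH overlapped. On the log2 scale it fell by 0.89 with SAFB disrupted (SE 0.071, adjusted p = 2.4e-10) and with ERH disrupted it fell by 0.72 (SE 0.071, adjusted p = 7.4e-09). The batches gave -0.90, -0.94 and -0.83 in SAFB and -0.61, -0.74 and -0.82 in ERH. Over the pairs of guide populations the range was -0.99 to -0.79 for SAFB and -0.80 to -0.63 for ERH.

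In the a cluster, mir-23a had a lowest, median and highest level of 1427, 1469 and 1606 CPM in control libraries. It reached 1133, 1221 and 1296 CPM in SAFB and 1195, 1251 and 1299 CPM in ERH. Both knockouts lay below control in every library and overlapped each other almost completely. The SAFB libraries had a log2 fold change of -0.31 (SE 0.058, adjusted p = 9.3e-05) and the ERH libraries one of -0.27 (SE 0.058, adjusted p = 0.00039). By batch it was -0.45, -0.26 and -0.22 in SAFB and -0.40, -0.25 and -0.15 in ERH. The ERH direction turned under total counts (0.039, adjusted p = 0.62) and spike-ins (0.018, adjusted p = 0.955). Without the population of SAFB guide 2 the SAFB change was -0.15 and no longer passed the test (adjusted p = 0.088). With the median of all tested precursors subtracted, it was -0.29 there, beside -0.32 with all libraries.

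mir-27a had 1126, 1341 and 1443 CPM as its lowest, median and highest control levels, 954.3, 1033 and 1092 CPM in SAFB, and 869.1, 1094 and 1208 CPM in ERH. The SAFB libraries lay below all control libraries, whereas the highest ERH libraries overlapped the lowest control library, guide 2 of batch 3. The log2 fold change was -0.36 for SAFB (SE 0.077, adjusted p = 0.00041), and for ERH it was -0.31 (SE 0.077, adjusted p = 0.0016). Batch values were -0.41, -0.40 and -0.26 in SAFB and -0.24, -0.43 and -0.26 in ERH. The SAFB call was lost without control guide 1 (-0.21), SAFB guide 1 (-0.19) or SAFB guide 2 (-0.24), and the ERH call without control guide 1 (-0.19) or ERH guide 2 (-0.21). With the median of all tested precursors subtracted, the SAFB values were -0.31, -0.38 and -0.38, beside -0.37 with all libraries. The ERH values were then -0.18 and -0.20, beside -0.25. Leaving out 1 library at a time ended neither call, with -0.33 to -0.27 in SAFB and -0.30 to -0.20 in ERH. Each of these falls was smaller than with all libraries. Without the ERH guide 2 library of batch 3 the ERH value was -0.20 (adjusted p = 0.012), and -0.21 with the median subtracted.

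mir-24, summed over both clusters, had 1891, 2096 and 2247 CPM as its lowest, median and highest control levels. The values were 1701, 1769 and 1841 CPM in SAFB and 1411, 1592 and 1724 CPM in ERH. Both knockouts lay below control in every library, and ERH reached the lower levels. The log2 fold change was -0.24 for SAFB (SE 0.059, adjusted p = 0.0016), and for ERH it was -0.40 (SE 0.059, adjusted p = 4.0e-06), with batch values of -0.30, -0.24 and -0.17 and of -0.41, -0.50 and -0.30. The SAFB call was lost without control guide 1 (-0.12), SAFB guide 1 (-0.077) or SAFB guide 2 (-0.10). With the median of all tested precursors subtracted, these values were -0.22, -0.27 and -0.25, beside -0.25 with all libraries. Leaving out 1 library at a time gave -0.20 to -0.14 for SAFB, each a smaller fall than with all libraries. The smallest was -0.14 (adjusted p = 0.038), without the SAFB guide 2 library of batch 2. With the median subtracted that value was -0.25. The hairpins of mir-3074 lie antisense to both mir-24 copies, and whether counting used strand is not given in the sources used here. The mir-3074 row held 1.13%, 0.627% and 1.18% as many counts as mir-24 in control, SAFB and ERH.

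**Figure D2:**
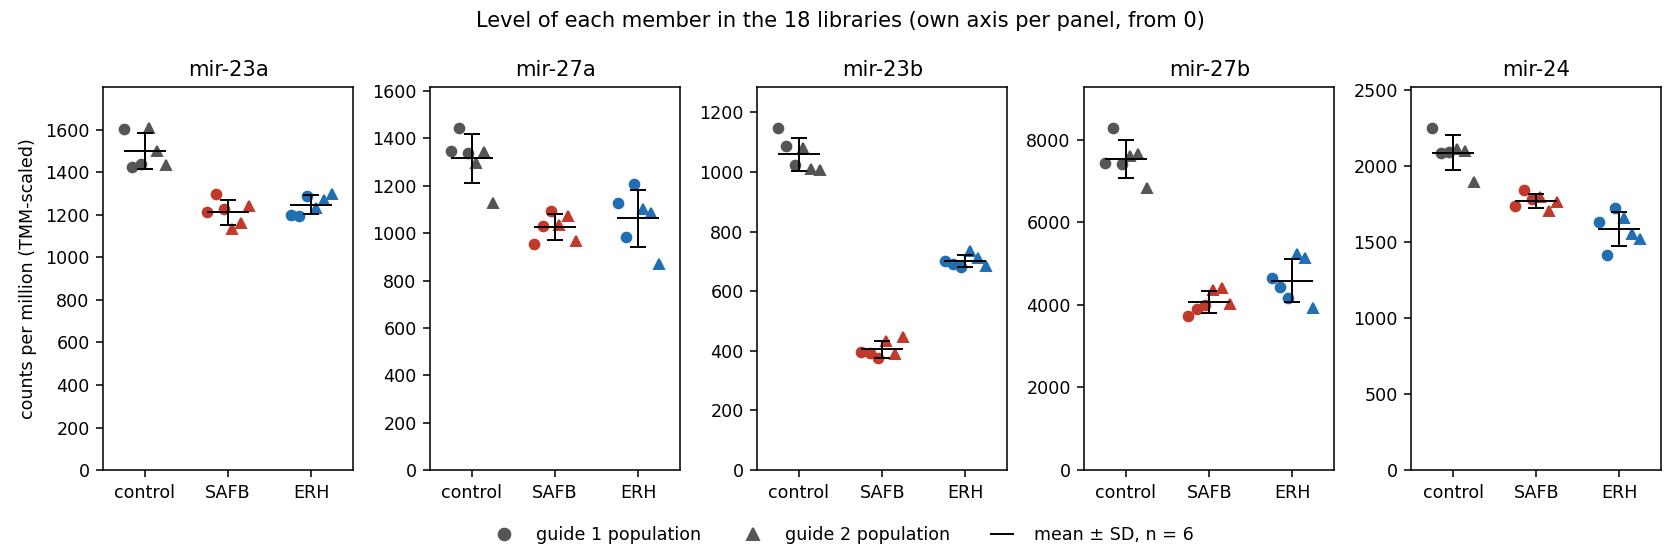
Level of each member in CPM (TMM-scaled counts, linear axis from 0, own scale per panel) in the 6 libraries of each genotype; circles and triangles are the populations of guide 1 and guide 2, and bars give the mean ± SD. The genotypes of mir-23b separate fully, at 1006 to 1147 CPM in control, 681.6 to 736.5 in ERH and 375.6 to 447.6 in SAFB, while for mir-23a and mir-27a the knockouts overlap.

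These counts stood against a broad background. In SAFB against control 5 of 5 members were called lower, where 25.3% of all tested precursors were, and in ERH 5 of 5 against 27.5%, both under TMM. Under total counts 2 of 5 members were called in ERH, where 33 of 273 precursors were called lower, and under spike-ins 0 of 5, where 19 were. All 6 SAFB libraries lay below all 6 control libraries for 5 of 5 members, against 17.2% of precursors, and for ERH for 4 of 5 against 17.9%. The median log2 fold change of the members was -0.36 in SAFB and -0.40 in ERH, beside 0.0083 and -0.061 over all tested. mir-23b had the 14th lowest fold change of 273 in SAFB and mir-27b the 31st, and in ERH they were 45th and 34th. The other 3 members ranked between 62nd and 86th in both knockouts. Both comparisons share the control libraries.

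Directly compared, the knockouts differed most in mir-23b. It was 0.79 higher on the log2 scale in ERH than in SAFB (SE 0.064, adjusted p = 1.3e-09), in every library and by 0.80, 0.85 and 0.74 in the 3 batches. mir-24 was lower in ERH under TMM, at -0.16 (SE 0.059, adjusted p = 0.036), with overlapping libraries, and its direction turned under total counts (0.10, adjusted p = 0.156) and spike-ins (0.38, adjusted p = 0.162). That call was lost when SAFB guide 2 of batch 3 (-0.16, adjusted p = 0.059) or ERH guide 1 of batch 2 (-0.16, adjusted p = 0.051) was left out. It was also lost without the population of ERH guide 1 (-0.16) or of ERH guide 2 (-0.18). Without the filter (-0.19) and with DESeq2 size factors (-0.13, adjusted p = 0.053) it did not pass either. mir-27b was 0.17 higher in ERH without passing the test (adjusted p = 0.057), and it passed with the batch as a replicate block (0.17, adjusted p = 0.035) and with DESeq2 size factors (0.20, adjusted p = 0.022). It was 0.10 without the ERH guide 2 library of batch 2 (adjusted p = 0.299) and passed at 0.21 without that of batch 3 (adjusted p = 0.013). mir-23a differed by 0.041 (95% confidence interval -0.079 to 0.16) and mir-27a by 0.051 (-0.11 to 0.21), neither of which passed under TMM. Both passed under total counts, at 0.31 each (adjusted p = 0.00044 and 0.0012), and under spike-ins, at 0.59 each (adjusted p = 0.029 each), as did mir-27b, at 0.44 and 0.74. The median of all 273 precursors in this comparison was 0.31 under total counts and 0.57 under spike-ins, so mir-23a and mir-27a then lay at the median of the table. Under TMM, 2 of 5 members were thus called, against 39.6% of all tested precursors, and 1 of 5 did not overlap, against 20.5%.

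**Figure D3:**
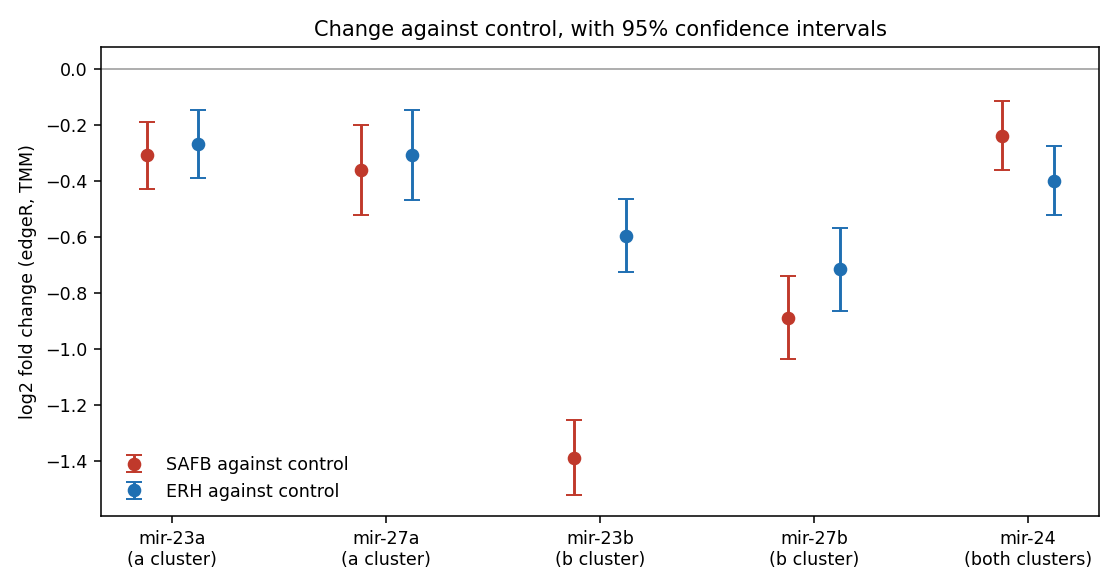
Log2 fold change of each member against control from the edgeR fit with TMM scaling, with 95% confidence intervals; red is SAFB and blue is ERH, 6 libraries against 6. mir-23b is at -1.39 in SAFB and -0.60 in ERH, and the members of the a cluster lie between -0.36 and -0.27.

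Within a genotype the guides gave like levels of the members. The guides of 1 genotype were called different in 0% of precursors in control, 0% in SAFB and 0.366% in ERH (edgeR), with 7, 10 and 18 precursors at an unadjusted p under 0.05. No member was called, and none had an unadjusted p under 0.05. Guide 2 minus guide 1 ranged over the members from -0.13 to 0.023 on the log2 scale in control, -0.081 to 0.14 in SAFB and -0.12 to 0.11 in ERH. The differences of mir-23b and mir-27b from control were several times larger.

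Ratios of counts within a library need no scaling between libraries, and they compare the clusters directly. The a-to-b ratio rose in both knockouts and in both families. The log2 ratio of mir-23a to mir-23b was 0.50 ± 0.067 (SD, n = 6 for each genotype) in control, and it was 1.58 ± 0.13 in SAFB and 0.83 ± 0.076 in ERH. In share, mir-23a made up 58.6% ± 1.13 of the mir-23 counts in control, 74.9% ± 1.73 in SAFB and 64.0% ± 1.22 in ERH. SAFB exceeded control by 1.08 and ERH exceeded it by 0.33, and the 3 genotypes did not overlap. Each had an exact two-sided permutation p of 0.0022, the smallest that 924 arrangements of 6 against 6 libraries can give (adjusted 0.0043 over the 24 ratio tests). ERH lay below SAFB by 0.75 (exact permutation p = 0.0022, adjusted 0.0043). Batches gave 0.98, 1.17 and 1.09 for SAFB and 0.23, 0.33 and 0.42 for ERH.

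The ratio of mir-27a to mir-27b moved the same way. Its log2 value was -2.52 ± 0.052 (SD, n = 6) for control, -1.99 ± 0.082 for SAFB and -2.11 ± 0.17 for ERH, so mir-27b was the larger row throughout. mir-27a made up 14.9% ± 0.45 of mir-27 counts in control, 20.1% ± 0.92 in SAFB and 18.9% ± 1.92 in ERH. The rise over control was 0.53 in SAFB, with batch values of 0.49, 0.53 and 0.57, and 0.41 in ERH, with 0.37, 0.31 and 0.55. Each knockout lay above control in 6 of 6 libraries (exact permutation p = 0.0022, adjusted 0.0043). The knockouts overlapped, and their difference of -0.12 did not pass (exact permutation p = 0.156, adjusted 0.208). That value depended on the ERH guide 1 library of batch 3, the highest of its group. It was -0.19 without that library (exact permutation, adjusted p = 0.019) and -0.23 without the population of ERH guide 1 (adjusted p = 0.022).

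Within the a cluster, no difference was detected between the falls of mir-23a and mir-27a. The log2 ratio of mir-27a to mir-23a was -0.19 ± 0.14 (SD, n = 6) for control, -0.24 ± 0.12 for SAFB and -0.24 ± 0.18 for ERH. It lay at -0.048 from control in SAFB (exact permutation p = 0.498) and -0.045 in ERH (exact permutation p = 0.652), and the libraries overlapped widely. The batches differed in sign, at 0.042, -0.15 and -0.038 in SAFB and 0.16, -0.18 and -0.11 in ERH. The pairs of guide populations ranged from -0.17 to 0.071 and from -0.21 to 0.12.

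Within the b cluster the members parted in SAFB and not detectably in ERH. The log2 ratio of mir-27b to mir-23b was 2.83 ± 0.091 (SD, n = 6) for control, 3.33 ± 0.12 for SAFB and 2.70 ± 0.13 for ERH, which are geometric mean ratios of 7.11, 10.04 and 6.51. SAFB lay above control in every library, by 0.50 (exact permutation p = 0.0022, adjusted 0.0043), with 0.53, 0.49 and 0.48 in the batches. ERH differed by -0.13 (exact permutation p = 0.0758, adjusted 0.107), with batch values of 0.021, -0.16 and -0.24. The difference between ERH and SAFB was -0.63 (exact permutation p = 0.0022, adjusted 0.0043).

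Whether the clusters differed in this respect was tested on the difference of the 2 log2 ratios, that within the a cluster minus that within the b cluster. It was -0.55 in SAFB against control, with every SAFB library below every control library (exact permutation p = 0.0022, adjusted 0.0043). In ERH it was 0.082 (exact permutation p = 0.320, adjusted 0.384). ERH lay 0.63 above SAFB without overlap (exact permutation p = 0.0022, adjusted 0.0043), and the batches gave 0.62, 0.61 and 0.65.

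**Figure D4:**
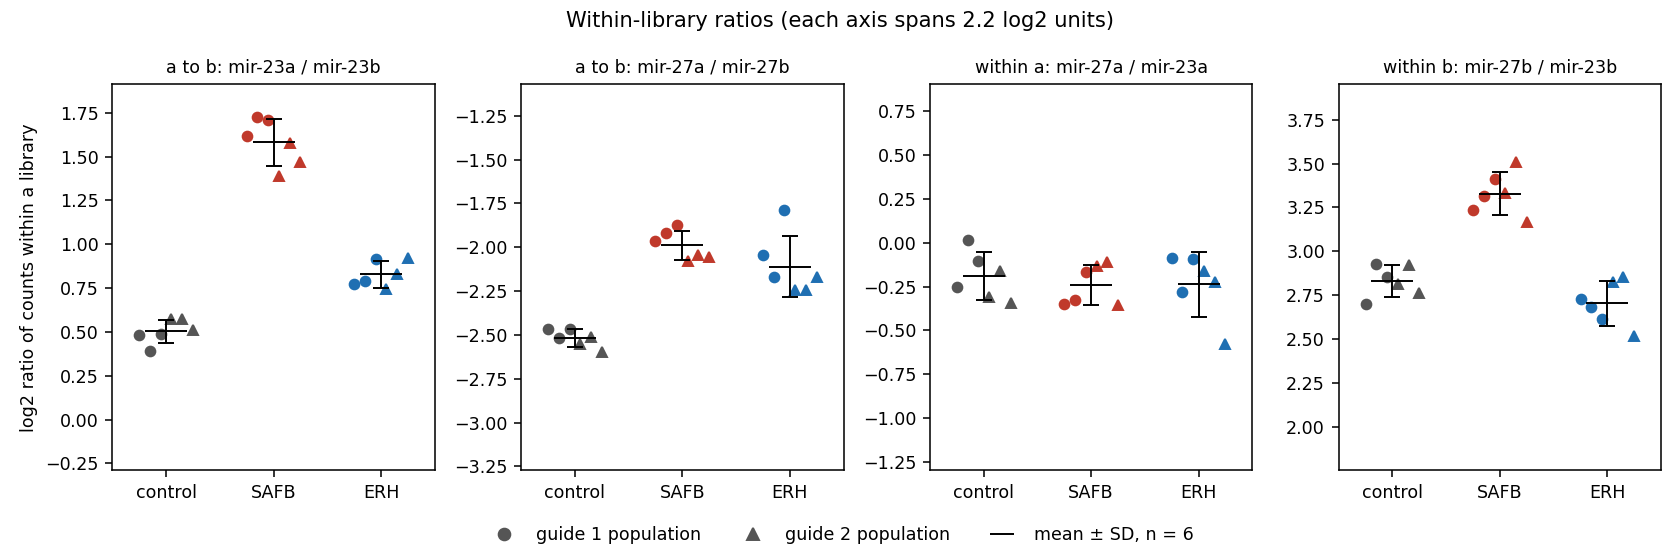
Log2 ratio of counts between members within each library, for the paralogs (left panels) and within each cluster (right panels); every axis spans 2.2 log2 units, symbols are the guide populations and bars the mean ± SD of 6 libraries. The a-to-b ratios lie above control in both knockouts, mir-27a to mir-23a overlaps across genotypes, and mir-27b to mir-23b is raised in SAFB, at 3.33 against 2.83 in control.

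The row mir-24 was set against the summed rows of the other families, which also hold both clusters. The log2 ratio of mir-24 to mir-23a plus mir-23b was -0.30 ± 0.053 (SD, n = 6) for control, 0.13 ± 0.045 for SAFB and -0.30 ± 0.094 for ERH. It rose by 0.43 in SAFB (exact permutation p = 0.0022, adjusted 0.0043) and differed by -0.0077 in ERH (exact permutation p = 0.868). Against mir-27a plus mir-27b it rose by 0.56 in SAFB without overlap (exact permutation p = 0.0022, adjusted 0.0043) and by 0.25 in ERH with overlapping libraries (exact permutation p = 0.0043, adjusted 0.0074). That ERH call was lost without either control population, with the value still at 0.25. Such a comparison sets 3 libraries against 6, which leaves fewer arrangements and a larger smallest p. The row mir-24 thus kept more of its level in SAFB than either pair of summed rows. The part of each cluster in mir-24 is not known, so these ratios cannot tell a difference of families from one of clusters. The ratio of summed mir-27 to summed mir-23 fell by 0.26 in ERH (exact permutation p = 0.0043, adjusted 0.0074), with overlap and with batch values of -0.057, -0.31 and -0.41. This call too was lost without either control population or without ERH guide 1. Its value ranged from -0.29 to -0.23 when a population was left out. In SAFB that ratio differed by -0.13 without passing (exact permutation p = 0.0714, adjusted 0.107). The sums weigh the clusters unequally. In control mir-23a made up 58.6% of mir-23 counts, but mir-27a only 14.9% of mir-27 counts. A shift between the clusters alone can therefore move this ratio, and it does not isolate a difference of families. Within the clusters the mir-27 to mir-23 ratio differed in ERH by -0.045 (a) and -0.13 (b), and neither passed.

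Summing paralogs before the fit removes any error in how reads were split between them. Summed mir-23 had a log2 fold change of -0.60 for SAFB (adjusted p = 1.1e-08), and for ERH one of -0.36 (adjusted p = 2.1e-05). Summed mir-27 was at -0.73 (SAFB, adjusted p = 4.3e-09) and -0.61 (ERH, adjusted p = 6.8e-08), and mir-24 in the same fit at -0.17 (adjusted p = 0.027) and -0.36 (adjusted p = 3.6e-05). Under TMM all 3 families were thus called lower in both knockouts, where 21.8% and 24.7% of the 271 rows of that fit were. In SAFB summed mir-23 and summed mir-27 were also called under the 3 other scalings. In ERH summed mir-23 lost its call under total counts (-0.088, adjusted p = 0.196) and under spike-ins (-0.10, adjusted p = 0.819), and summed mir-27 lost it under spike-ins (-0.34, adjusted p = 0.269). Between ERH and SAFB summed mir-23 was higher by 0.24 (adjusted p = 0.0027) and mir-24, whose direction turned under total counts and spike-ins as given above, lower by 0.19 (adjusted p = 0.019), while summed mir-27 differed by 0.12 and was not called (adjusted p = 0.191). It was called under DESeq2 size factors (0.19, adjusted p = 0.027), total counts (0.41, adjusted p = 8.1e-06) and spike-ins (0.72, adjusted p = 0.0056), and summed mir-23 was then at 0.53 under total counts and 0.82 under spike-ins. In that comparison 39.9% of rows were called.

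The calls of the ERH changes, and for mir-23a the direction, depended on the scaling of the libraries. Under total counts the ERH changes of mir-23b (-0.29, beside -0.60 under TMM) and mir-27b (-0.41, beside -0.72) were smaller and still called. Those of the other 3 members were not, with mir-23a at 0.039, mir-27a at -0.0065 and mir-24 at -0.096. Scaled to the 4 spike-ins, which were added to total RNA, no ERH change was called, and mir-23b was at -0.29 (adjusted p = 0.380) and mir-27b at -0.40 (adjusted p = 0.172). In SAFB spike-in scaling ended 1 call, that of mir-24 (-0.49, adjusted p = 0.075). It moved mir-23a from -0.31 to -0.57 and mir-27a from -0.36 to -0.61, and both were still called. These scalings moved the median fold change of all tested precursors, in ERH from -0.061 under TMM to 0.24 under total counts and 0.23 under spike-ins, and in SAFB from 0.0083 to 0.043 and -0.23. Subtracting that median removes a shift common to all precursors by construction, so it gives the place of the members among the others and is no check of the direction of their change. In SAFB mir-23b then lay between -1.40 and -1.39, mir-27b between -0.91 and -0.89, mir-27a between -0.38 and -0.36, mir-23a between -0.34 and -0.31 and mir-24 between -0.26 and -0.24. In ERH the ranges were -0.53 to -0.52 for mir-23b, -0.65 to -0.63 for mir-27b, -0.25 to -0.24 for mir-27a, -0.21 to -0.20 for mir-23a and -0.34 to -0.33 for mir-24. That comparison was chosen after the data had been seen.

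**Figure D5:**
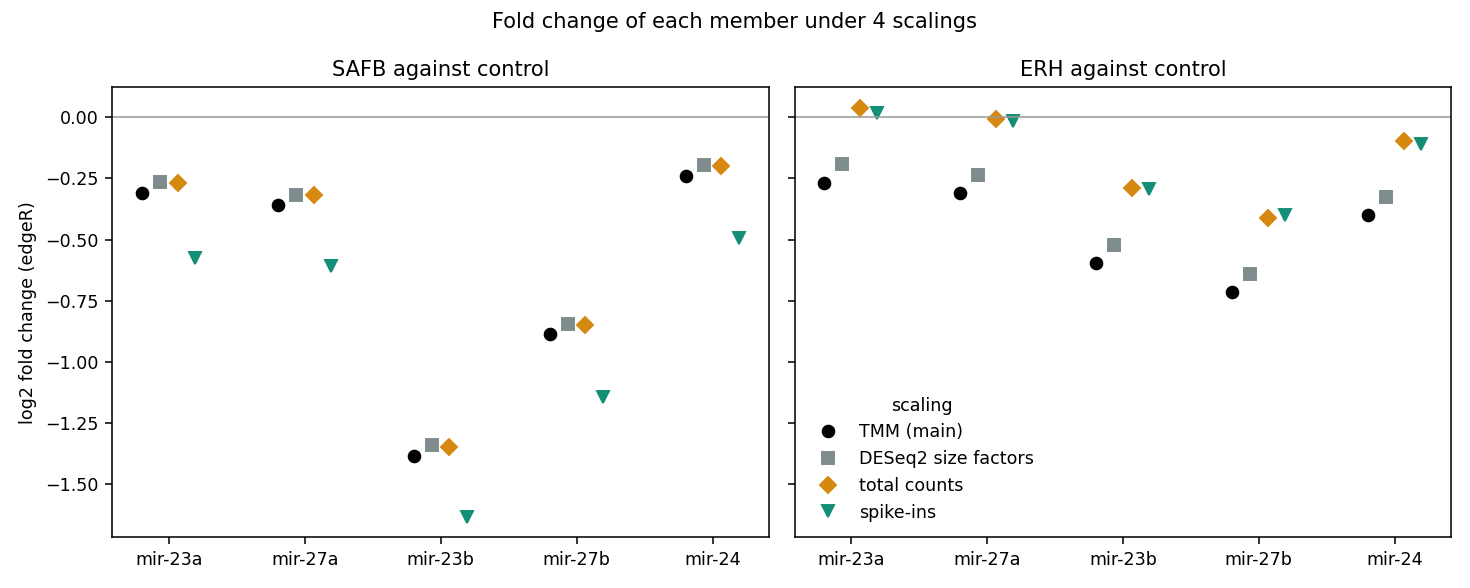
Log2 fold change against control of each member in the edgeR fit under 4 ways of scaling the libraries: TMM, DESeq2 size factors, total miRNA counts and summed spike-ins. In ERH mir-23a goes from -0.27 under TMM to 0.039 under total counts and 0.018 under spike-ins, and mir-23b and mir-27b stay below 0 under all 4 scalings.

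Over the 18 libraries all pairs of members correlated positively, with Pearson's r from 0.489 for mir-23b and mir-24 to 0.881 for mir-23b and mir-27b, across genotypes that differ in level. With population means removed, mir-27a and mir-27b deviated together, with r = 0.751, whereas mir-23a and mir-27a of the same cluster had r = 0.0498 and mir-23b and mir-27b r = 0.174. mir-24 had r = 0.673 with mir-27a, 0.522 with mir-23a, 0.392 with mir-23b and 0.227 with mir-27b. The only negative pair was mir-23a with mir-27b, at r = -0.285, and mir-27a with mir-23b had r = 0.0191. The paralogs mir-23a and mir-23b had r = 0.429. These values describe libraries that share a scaling factor, and no test was made between them.

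Other precursors with a like course over the 18 libraries were taken from the 109 with a mean of at least 100 CPM, as the 2 with the highest Pearson's r on log2 CPM. mir-23b was closest to mir-29c (r = 0.992), which was at -2.83 in SAFB and -1.21 in ERH, and to mir-181b (r = 0.969), at -2.56 and -0.63. mir-27b was closest to mir-15a (r = 0.962), at -3.61 and -2.59, and to mir-425 (r = 0.946), at -4.69 and -3.72. Populations were sorted on a miR-15a reporter, so the level of mir-15a was not independent of the sort. mir-23a was closest to mir-425 (r = 0.905) and mir-130b (r = 0.899). mir-27a was closest to let-7g (r = 0.930), at -0.30 and -0.37, and mir-29b (r = 0.909), and mir-24 to let-7a (r = 0.910), at -0.11 and -0.27, and mir-19a (r = 0.906). All correlations run over the 3 genotypes and describe likeness of course, not of size.

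Other miRNA clusters with a paralog cluster in mouse, such as mir-17 to mir-92a, mir-15a with mir-16, mir-29 and mir-181, moved in both directions. Of 33 listed, 28 were tested. The list holds mir-15a, on whose reporter the populations were sorted. In SAFB 9 were called higher and 13 lower, with a median of -0.47, where 30.8% of all tested precursors were called higher and 25.3% lower. In ERH 7 were called higher and 18 lower, with a median of -0.24, where the shares were 26.4% and 27.5%. The counts of this paragraph are under TMM. Over all 273 precursors ERH had 72 higher and 75 lower under TMM, 108 and 33 under total counts and 72 and 19 under spike-ins. Of miRNAs with known roles in blood cell differentiation 15 were tested, of which 6 were called higher and 4 lower in SAFB (median -0.062) and 5 higher and 6 lower in ERH (median -0.076).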

How the data were processed

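Small RNA of 18 Baf3 libraries was made with the QIAseq miRNA kit from total RNA mixed with 4 spike-in RNAs, per the labels' protocols. The deposited table gives counts of reads, in whole numbers, for 1006 precursors and the spike-ins, not normalized. SAMtools is named in the submitters' processing notes; the aligner, build, handling of reads with several matches and collapsing of molecular identifiers are not given in the sources used here.

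The main test was edgeR's quasi-likelihood test, version 4.0.16 (R 4.3.3, limma 3.58.1), with filterByExpr at a minimum count of 10 by population, TMM scaling, 1 mean per genotype over all 18 libraries and Benjamini-Hochberg adjustment over the 273 precursors kept; a call is an adjusted p under 0.05. CPM were computed here. The SE is the size of the log2 fold change divided by the square root of F. Spike-ins stayed out of library sizes and tests. Within-library log2 ratios of counts were compared by exact two-sided permutation tests (scipy 1.17.1), and their p-values were adjusted over 24 tests. Folding energies came from RNAfold 2.7.2. The scripts were tested on simulated data. Alternatives included DESeq2 1.42.0, 3 other scalings, no filter, summed paralogs and leaving out libraries or populations.

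The labels' batch number pairs libraries across populations. After removal of population means, the average correlation was 0.0938 over 45 pairs of one batch and -0.0466 over 90 pairs of different batches. Libraries of a population differed by more than sampling noise (chi-square per degree of freedom of at least 33.0), so none was counted as a duplicate. They came from only 2 independently edited populations per genotype, and p-values over libraries measure the spread between these libraries. The members, comparison lists and tests were chosen with earlier results of these data known. The members are always named, with the 2 precursors most like each; the single marker miRNAs were named after their values were seen.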

Additional observations from a re-analysis of the deposited data

How the results depend on the processing

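No ERH call against control held under every scaling. In ERH against control mir-23a reversed to 0.039 with total counts as the scale and to 0.018 with spike-ins, and the members called fell from 5 to 2 and 0. In ERH against SAFB mir-24 reversed to 0.10 and 0.38, and 4 members were called under either scaling, where 115 of 273 precursors were called higher and 8 lower under total counts and 111 higher and 1 lower under spike-ins. The cause was not tested. Without a filter 1 member was called in that comparison (109 of 726 precursors), as without the population of ERH guide 1 (78 of 267) or of ERH guide 2 (87 of 262). Leaving out 1 library gave 1 to 3 members, where from 95 of 279 to 112 of 287 precursors were called. In SAFB against control 3 members were called without control guide 1 (46 of 271 precursors called lower) or SAFB guide 1 (46 of 266) and 2 without SAFB guide 2 (38 of 270), beside 69 of 273 with all libraries, and mir-23b and mir-27b were among them each time. Leaving out libraries or populations also changes which precursors pass the filter, and with them the TMM scale. In SAFB against control every fit with 1 library left out gave a smaller fall of each member than the main fit. For mir-23a these fits gave -0.28 to -0.21, beside -0.31. In ERH the same held for all members but mir-27b, which ranged from -0.72 to -0.62, beside -0.72. The ratio of mir-27a to mir-27b in ERH against SAFB passed at -0.23 without the population of ERH guide 1, and ranged from -0.19 to -0.095 when 1 library was left out. Among ratios to summed rows, mir-27a+b to mir-23a+b in ERH against control lost its call without control guide 1 (-0.23), control guide 2 (-0.29) or ERH guide 1 (-0.25), and in SAFB against control it gained one without SAFB guide 2 (-0.20) or its batch 2 library (-0.17). mir-24 to mir-27a+b lost its ERH call without control guide 1 or control guide 2 (0.25 each) and, in ERH against SAFB, without SAFB guide 1 (-0.24). With a population left out the permutation test has fewer arrangements, so a ratio can lose its call with its value unchanged.

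With the batch as a replicate block, 1 call changed: mir-27b in ERH against SAFB passed at 0.17 (edgeR, adjusted p = 0.035). Permutation within batches and a pseudocount of 1 left all 24 ratio results on their side of the threshold. Taking the 2 populations of a genotype as its replicates leaves 6 arrangements and a smallest p of 0.333, so that alternative could not pass and is given no call. None of 39 groups of 6 libraries held 1 that stood apart. Every member had at least 1302 counts in each library. Each genotype rests on 2 edited populations.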
